A study of Mus musculus with 6 samples.

Results

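Distal unmethylated windows are stretches of 1000 bp that carried almost no DNA methylation in mouse lung endothelial cells although they lie far from the ends of genes. They were chosen by their measured level: the mean of the 6 samples had to be under 10%, at most 2 samples could hold a value under 0.01%, and the window had to lie over 10 kb from both edges of every protein-coding RefSeq gene, inside or outside genes. This rule found 6871 windows, 0.549% of the 1251285 windows that lie as far from gene edges and 22.1% of the 31076 windows that meet its limits on the level anywhere on the autosomes. The table as a whole held 1683697 windows with a value in all samples. Because the level chose the windows, their low values are given as a description and are not a finding. Of the annotation, the rule used only the distance to edges of protein-coding genes, which bounds the distances and coding starts given here. Other annotation, the identity of neighbouring genes, sequence, flanks and the difference between ages were not used and are described below.

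The samples were endothelial cells, the cells that line blood vessels, sorted by flow cytometry from lungs of wild-type mice. The group mAdu (3 samples) was taken as 8 months old and the group aged (3 samples) as 18 months old. The labels name no transgene, treatment or sort marker. They do not tell if replicates are different mice, so every p-value here refers to differences among these 6 samples, which could be technical ones. Values are mean methylation levels per window in percent on mm10, and neither reads nor CpG sites per window are given, so the depth is unknown. The cell type label was checked at genes fixed as markers, using whichever window at either edge of the gene was less methylated. Its median was 6.8% over 14 endothelial markers and 13.2%, 37.1% and 61.3% over 10 mesenchymal, 11 epithelial and 10 haematopoietic markers, and 9, 4, 4 and 2 of these genes lay under 10%.

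Mammalian DNA is methylated at most CpG sites, a cytosine followed by a guanine. Sites stay unmethylated mainly at CpG-rich promoters, at stretches held by Polycomb complexes around developmental genes, and, usually less completely, at enhancers bound by transcription factors of the cell type. Unmethylated DNA far from the ends of coding genes can therefore be an internal promoter, the promoter of a non-coding RNA gene, or a regulatory element, and methylation data alone do not tell these apart.

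Sequences were available for annotated starts and for miRNAs. Of the 6871 windows, 676 held an annotated start. The promoters below, each from 250 bases before to 50 after the start, were chosen after their values were seen, to show the range from CpG-poor to CpG-rich. They are RefSeq sequences of GRCm38.p6, the assembly of mm10, written 5′ to 3′ on the gene's strand with every CG in capitals.
Erg, internal start, chr16:95459299-95459598, minus strand, 4 CG: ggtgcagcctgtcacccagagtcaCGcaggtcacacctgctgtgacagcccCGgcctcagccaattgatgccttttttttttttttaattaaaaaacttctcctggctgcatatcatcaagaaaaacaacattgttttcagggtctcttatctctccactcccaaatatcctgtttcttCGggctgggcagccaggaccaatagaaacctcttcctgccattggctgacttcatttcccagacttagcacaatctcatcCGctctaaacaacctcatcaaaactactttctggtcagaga
Adgrf5, internal start, chr17:43389216-43389515, plus strand, 8 CG: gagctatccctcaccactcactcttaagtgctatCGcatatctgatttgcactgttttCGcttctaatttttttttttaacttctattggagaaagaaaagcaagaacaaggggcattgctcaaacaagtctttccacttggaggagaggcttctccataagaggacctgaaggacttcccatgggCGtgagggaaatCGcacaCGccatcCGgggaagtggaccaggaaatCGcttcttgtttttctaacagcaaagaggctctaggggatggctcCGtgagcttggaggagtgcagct
Malat1, chr19:5802623-5802922, minus strand, 10 CG: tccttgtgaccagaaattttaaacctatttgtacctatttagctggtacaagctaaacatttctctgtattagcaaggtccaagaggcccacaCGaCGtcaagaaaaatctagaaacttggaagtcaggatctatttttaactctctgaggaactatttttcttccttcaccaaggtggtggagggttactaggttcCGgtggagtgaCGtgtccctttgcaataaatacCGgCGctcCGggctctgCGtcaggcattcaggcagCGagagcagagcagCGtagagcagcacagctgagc
Runx1, internal start, chr16:92697280-92697579, minus strand, 35 CG: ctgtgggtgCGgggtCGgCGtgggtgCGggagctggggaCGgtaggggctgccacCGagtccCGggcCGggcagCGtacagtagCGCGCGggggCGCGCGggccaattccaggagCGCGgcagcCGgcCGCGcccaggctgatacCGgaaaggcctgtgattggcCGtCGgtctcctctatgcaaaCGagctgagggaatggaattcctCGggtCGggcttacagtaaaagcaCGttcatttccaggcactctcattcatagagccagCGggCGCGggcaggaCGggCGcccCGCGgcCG
Foxp1, internal start, chr6:99028249-99028548, minus strand, 44 CG: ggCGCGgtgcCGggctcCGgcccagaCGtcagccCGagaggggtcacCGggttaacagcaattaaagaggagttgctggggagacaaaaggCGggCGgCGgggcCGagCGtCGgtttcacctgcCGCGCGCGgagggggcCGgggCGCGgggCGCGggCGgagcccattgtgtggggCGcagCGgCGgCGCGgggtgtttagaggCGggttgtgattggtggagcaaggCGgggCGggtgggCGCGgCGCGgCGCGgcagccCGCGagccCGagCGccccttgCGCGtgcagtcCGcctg

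These promoters differ widely in their number of CG, while the rule held the level of all their windows under 10%. The window with the Erg start had 7.38%, 3.01% and 3.66% in the mAdu and 0.925%, 2.08% and 5.98% in aged samples. That of Adgrf5, an adhesion G protein-coupled receptor of lung capillaries, lay at 2.13%, 1.91% and 2.61% and at 3.7%, 1.35% and 2.87%. The window with the start of Malat1, an abundant nuclear lncRNA, measured 0.0751%, 1.81% and 1.76% in mAdu, against 0.615%, 0.222% and 0.497% in aged. The groups overlap in each of these windows. Runx1, the transcription factor of haemogenic endothelium and blood, had 1.79%, 0.882% and 0.586% in mAdu and 1.16%, 0.502% and 1.55% in aged. Foxp1, a forkhead factor expressed in many tissues, had 0.413%, 0.879% and 0.222% against 0.513%, 2.48% and 0.77%. Both CpG-rich starts again overlapped between groups.

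Several of the windows hold miRNA genes, and the copies that give 1 mature miRNA did not always share the state. The mature sequences below, from RefSeq, are those discussed next, with the seed (bases 2 to 8) in capitals.
miR-9-5p: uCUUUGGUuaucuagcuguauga
miR-128-3p: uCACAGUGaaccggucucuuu
miR-129-5p: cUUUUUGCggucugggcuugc
miR-137-3p: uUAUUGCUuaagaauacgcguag
miR-193a-3p: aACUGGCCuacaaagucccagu
miR-30a-5p: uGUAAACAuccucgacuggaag
No pair of these 6 shares a seed.

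The genes of miR-9, a miRNA known for its role in neural progenitors, were unmethylated at all 3 copies. Mir9-1 (chr3:88215598-88215686) sat in a window of 0.931%, 1.26% and 1.27% in mAdu, against 1.41%, 2.27% and 0.979% in aged. Mir9-3 (chr7:79505264-79505353) had 1.84%, 3.32% and 2.37% against 2.11%, 3.56% and 2.46%, and Mir9-2 (chr13:83738814-83738885) had 4.27%, 3.29% and 4.01% against 2.42%, 2.64% and 5.51%. None of the 3 lies inside a protein-coding gene. In contrast, miR-128-3p comes from a pair of genes in opposite states. Mir128-2, inside Arpp21 (chr9:112118636-112118711), had 5.85%, 4.24% and 3.81% in mAdu, then 5.1%, 4.01% and 3.15% in aged, while the window of Mir128-1, inside R3hdm1, lay at 85.2% to 87.7% in mAdu and 89.1% to 90.9% in aged. The pair that gives miR-129-5p was split in the same way. Mir129-2 (chr2:94241364-94241453) had a mean of 2.21% over the 6 samples, and Mir129-1 one of 82.3%.

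Mir137, Mir193a and Mir30a have no second copy of the same mature sequence in the table used. Mir137, a neuronal miRNA gene 128109 bp from the edge of Dpyd, lay at 4.54% to 6.22% in single samples. Mir193a (chr11:79711969-79712034) was the least methylated of them, with 0.698%, 1.4% and 1.03% in mAdu and 0.464%, 0.428% and 0.502% in aged. Mir30a, whose miRNA is abundant in lung, lay between 0.514% and 6.65%. The miRNA table used holds 919 hairpins on autosomes other than chromosome 18. Of these, 368 overlapped a window over 10 kb from a gene edge, and 19 overlapped a distal unmethylated window.

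Annotated starts were far more frequent in distal unmethylated windows than in distal windows at large. A start was present in 9.84% of them (95% Wilson interval 9.16% to 10.6%), against 0.573% of all windows over 10 kb from gene edges and 2.46% of those with a mean of 10% to 30%. Starts of protein-coding genes lay in 405 windows and starts of lncRNAs in 303. Since the windows are over 10 kb from the edges of coding genes, such a coding start is an internal 1. Seen from the other side, 33% of the distal windows with a coding start were unmethylated, 5.05% of those with a lncRNA start, and 0.498% of those with neither, as the plot of these shares shows. The table of starts used has no entry for chromosome 18 and may miss others, so a window without an annotated start may still hold one. Leaving out chromosome 18, an alternative added after the data were seen, a start was present in 10.3% of distal unmethylated windows and 0.597% of all distal windows. The intervals treat windows as independent, which neighbouring windows are not.

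**Figure D1:**
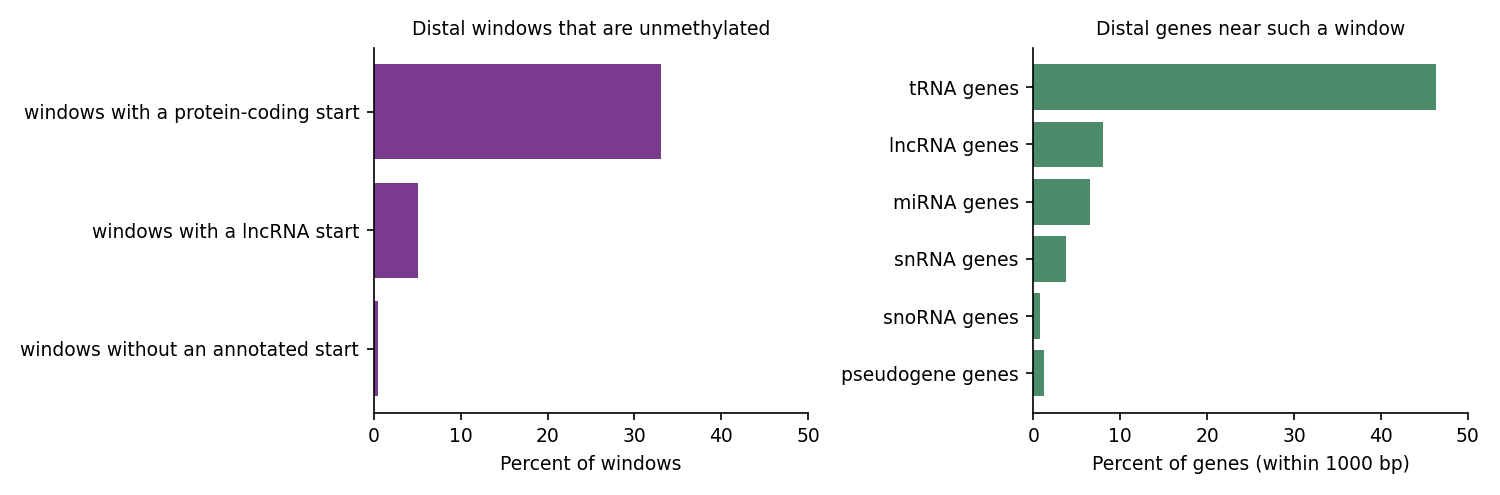
Left, bars give the percent of windows over 10 kb from the edges of protein-coding genes that are unmethylated, by annotated start, from 0.498% without a start to 33% with a protein-coding start. Right, bars give the percent of genes with an edge in such a distal window that lie within 1000 bp of a distal unmethylated window, by RefSeq gene type, with tRNA genes highest of the 6 types drawn, at 46.3%.

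Non-coding genes of several kinds lay next to the windows. An edge of a RefSeq gene that is not protein-coding was within 1000 bp of 16.1% of them (15.2% to 16.9%). The share was 5.11% for all distal windows and 9% for those with a mean of 10% to 30%. A lncRNA was near 885 windows, a pseudogene near 83, a tRNA near 67 and a miRNA near 39, and some windows had several. tRNA genes, which RNA polymerase III reads from promoters inside the gene, had the highest share among the types with over 100 distal genes: 75 of 162 lay within 1000 bp of a distal unmethylated window (46.3%), compared with 693 of 8709 lncRNA genes (7.96%), 33 of 508 miRNA genes (6.5%), 19 of 510 snRNA genes (3.73%), 70 of 5764 pseudogenes (1.21%) and 5 of 689 snoRNA genes (0.726%). tRNA genes often lie in clusters, so several can share a window. No V segment of the antigen receptor loci, of 251, lay near one.

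Among named non-coding genes the least methylated window, at chr14:76152001-76153000, holds the tRNA gene n-TEttc6. It measured 0.0783%, 0.123% and 0.114% in mAdu, against 0.211%, 0.0919% and 0.407% in aged samples. The window beside n-TEctc13, another glutamate tRNA gene, had a mean of 0.295% and that beside the tryptophan tRNA gene n-TWcca5 0.422%. Further windows lay at Rnu3b3, typed as a small nuclear RNA gene in RefSeq (0.378%), the lncRNA genes Lncpint (0.353%) and Tbrg3 (0.38%), the transcribed pseudogene Gpr137b-ps (0.346%) and the miRNA gene Mir1893 (0.424%). None of these 8 windows exceeded 1.08% in any sample.

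Most of the windows had no such annotation. Neither a start nor an edge of another gene within 1000 bp was present for 5407 of them, 78.7% (77.7% to 79.6%), against 94.8% of all distal windows, with the same limit on the starts known (78.4% against 94.7% without chromosome 18). They lay closer to coding genes than distal windows at large, with a median distance to an edge of 37731 bp against 66378 bp, and 19.1% against 39.3% were over 100 kb away. More of them lay inside protein-coding genes, 54.2% (53.1% to 55.4%) against 41.8%. The shares inside genes and near other genes moved with the limits of the rule, as given in the closing section. Few windows lay very far from coding genes, and the farthest, at chr2:46666001-46667000, was 1548559 bp from its nearest coding gene Zeb2. Its mAdu values were 4.5%, 8.77% and 11.2%, and its aged values 6.86%, 8.88% and 7.49%. Others among the 5 farthest lay 1399281 bp from Mrpl39, 1319655 bp from Ralyl and, as an adjacent pair inside the lncRNA 1700019L22Rik, 1392177 and 1393177 bp from Tenm3.

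The sequence at the starts differed between coding and lncRNA genes. Over 819 starts in distal unmethylated windows the promoter of 300 bases held a median of 15 CG (quartiles 7 and 27), with 20 at coding and 9 at lncRNA starts. Starts in distal windows at 50% methylation or more held a median of 3 CG, and those in unmethylated windows within 10 kb of an edge 23. At most 5 CG were present in 24.2% of the lncRNA promoters and in 9.13% of the coding ones. The Erg promoter printed above is among these CG-poor ones and the Foxp1 promoter has over 10 times its number. Motifs were searched on both strands as plain letters. The GC box, GGGCGG, was in 54.2% of promoters at these starts and in 39% of all promoters. The core bound by ETS factors, CCGGAA, was in 17.2% and 16.3%, an E-box, CACGTG, in 5.74% and 7.63%. A TATA box, spelled TATAAA, was in 7.2% of promoters at these starts and 12% of all. At starts in distal windows at 50% methylation or more, the GC box, ETS core, E-box and TATA box were in 6.69%, 5.05%, 5.54% and 17.5%. At starts in unmethylated windows within 10 kb of an edge they were in 70.2%, 28%, 10.4% and 5.67%. The GC box, ETS core and E-box contain a CG, so their counts move with CG content. The Runx1 and Malat1 promoters hold the ETS core, the Foxp1 promoter the GC box, and those of Erg and Adgrf5 none of the 4.

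The unmethylated stretches were short with steep sides. Adjacent windows joined into 5559 runs, of which 4679 were a single window, 635 had 2 windows, 153 had 3 and 92 had 4 or more, holding 463 windows. Over the 5479 runs that were not cut off by the 10 kb limit the level was 4.89% inside, 55.1% and 54.8% in the window on either side, and 69.7% in the next on both sides, close to the 69.9% to 70.6% found 10 kb away. An adjoining window with values was present for 4871 of these runs on 1 side and 4906 on the other. Elsewhere the run ended where values were missing, so it may be longer. The definition of a run puts adjoining windows at 10% or more. Runs with an annotated start were a little broader, with 50.3% and 48% in the adjoining windows. Mean levels, which the rule bounds, were 5.34%, 4.09%, 3.5% and 3.56% for windows in runs of 1, 2, 3 and 4 or more.

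**Figure D2:**
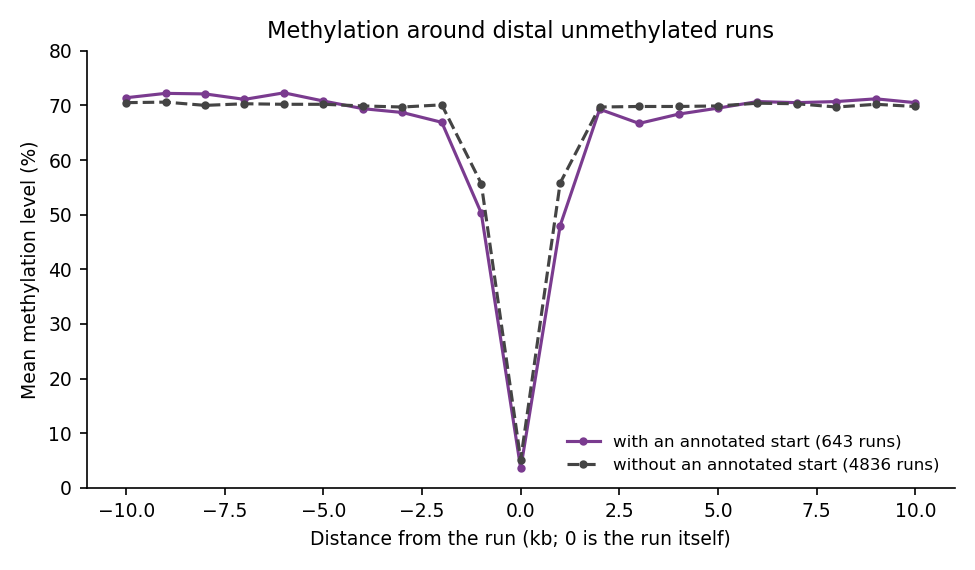
Mean methylation level in percent against the distance from the run in kb, as the mean over all 6 samples, with 0 for the run itself, for 643 runs with and 4836 without an annotated start. Runs with a start have 50.3% and 48% in the window on either side and 66.9% and 69.3% in the next.

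The longest runs lay at genes of endothelial regulators, and at a few developmental and non-coding genes. The longest, 11 windows, lay inside Dlc1 (chr8:36603001-36614000), a GTPase-activating protein, 35262 bp from its nearest edge. It averaged 2.02%, 3.33% and 2.3% in mAdu and 1.92%, 2.23% and 2.62% in aged samples, and its 6 flanking windows averaged 47.5%. An equally long run inside Erg (chr16:95449001-95460000), the ETS factor that maintains endothelial identity, contains the internal start printed above. Its mAdu samples had 2.76%, 2.11% and 3.86%, its aged samples 2.13%, 2.52% and 3.97%. Neither run separated the groups.

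Runs of 8 or 9 windows lay inside further endothelial transcription factor genes. A run of 10 at chr13:83713001-83723000 lay outside coding genes and contains the starts of the lncRNAs C130071C03Rik and Gm52046. Its nearest coding gene, 45922 bp away, was Mef2c, a MADS-box factor of muscle and vessels. The run was not assigned to Mef2c by more than this distance. This run had 6.86%, 4.83% and 4.98% in mAdu and 5.49%, 6.08% and 5.18% in aged. Ets1, another ETS factor of endothelium, held a run of 9 (chr9:32695001-32704000) at 2.06%, 1.98% and 1.67% against 2.33%, 3.16% and 2.62%. In this run every aged sample was above every mAdu sample, by 0.801 points on average (limma 95% interval -0.25 to 1.85, adjusted p = 0.939). Epas1, the hypoxia-inducible factor HIF-2 alpha, held a run of 8 (chr17:86767001-86775000) at 3.7%, 3.82% and 3.37% against 3.27%, 3.63% and 4.98%, flanked by windows at only 18.9%. A run of 8 inside Tcf4, a basic helix-loop-helix factor on chromosome 18, lay between 1.59% and 2.9% in single samples. In both of these runs the groups overlapped.

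The other long runs lay at genes of other kinds. At chr7:79503001-79511000 a run of 8 overlaps the lncRNA Mir9-3hg, the host of Mir9-3, with 4.26%, 4.34% and 4.21% in mAdu and 4.52%, 5.28% and 3.78% in aged. Runs of 8 near Cbx8, a Polycomb subunit (chr11:119051001-119059000, mean 3.78%), and inside Pax6, a factor of eye and brain development (chr2:105679001-105687000, mean 4.55%), were cut by the 10 kb limit. Every aged sample was lower than every mAdu sample in the Pax6 run (5.49%, 4.75% and 5.21% against 3.78%, 4.59% and 3.5%), but the whole unmethylated stretch of 24 windows differed by -0.257 points (limma adjusted p = 0.962). The 7 windows over Malat1 (chr19:5797001-5804000) were the least methylated of the 10 runs, at 0.49%, 0.926% and 1.18% in mAdu and 0.462%, 0.612% and 0.34% in aged, with flanks at 39.8%. They cover the transcript as well as its start.

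**Figure D3:**
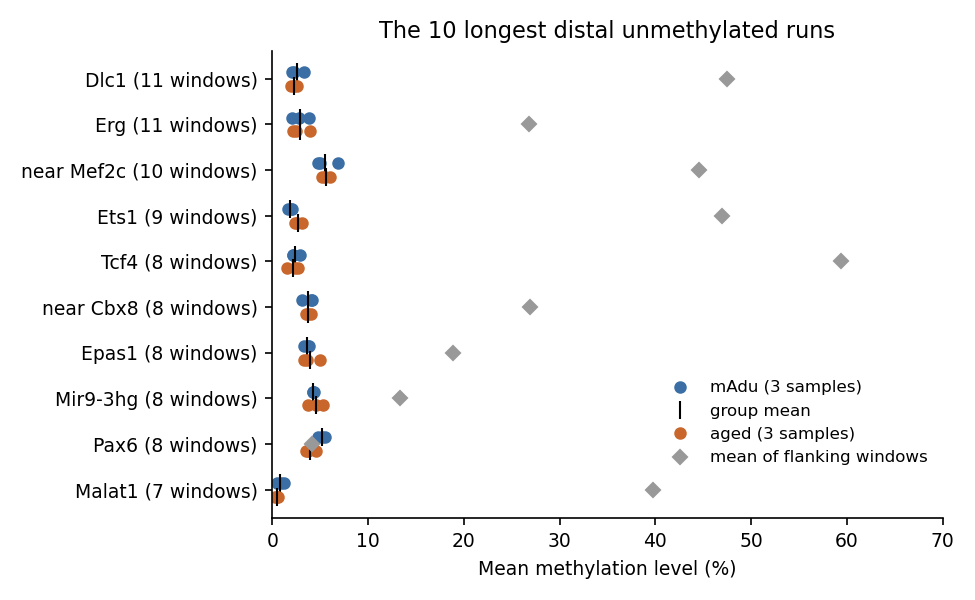
Mean methylation level in percent of the 10 longest runs, with 1 point per sample (mAdu and aged, 3 each), bars at the group means, and diamonds for the flanking windows. All runs lie under 7% in every sample, and the flanks range from 4.14% at Pax6, which the 10 kb limit cuts, to 59.4% at Tcf4.

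Some genes held many separate stretches. Epas1 contained 26 distal unmethylated windows in 11 runs, 44.1% of its 59 windows over 10 kb from an edge, at 4.97%, 4.58% and 4.26% in mAdu and 4.44%, 4.47% and 5.65% in aged. Ets1 contained 18 (20.2% of its distal windows), as did Denn2b, a DENN-domain regulator of Rab proteins (13.7%), and Pde4d, a cAMP phosphodiesterase whose length leaves the share at 1.85%. Dlc1 held 17, Tcf4 16, Tjp1, the junction protein ZO-1, 15, and Erg 14. The windows in Ets1 averaged 3.22%, 4.54% and 2.75% in mAdu and 4.14%, 5.36% and 5.1% in aged, so the groups overlapped there. Over the 20 windows within 100 kb of its edges they did not, with 3.48%, 4.42% and 3.29% against 4.77%, 5.38% and 5.25%. This difference was not tested. In all, 1691 of 20665 protein-coding genes on autosomes contained at least 1 such window and 167 contained 5 or more.

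Endothelial genes had more distal unmethylated windows around them than other genes. Within 100 kb of an edge, 34 of 44 endothelial transcription factors had at least 1 (77.3%) and 35 of 45 endothelial surface and signalling genes (77.8%), where 35.7% of all protein-coding genes did. The medians were 2 and 3 windows per gene, against 0 for all genes. As a share of the distal windows within reach, 2.78% (2.41% to 3.21%) and 2.93% (2.5% to 3.42%) were unmethylated, against 0.731%. The windows were picked for low methylation in these endothelial samples and the lists were chosen with earlier results known, so these counts describe the loci and do not test them. Without windows that hold an annotated start, an alternative added after the data were seen, the shares were still 4.01 and 4.26 times that of all genes, compared with 3.8 and 4 times for all windows. Distal windows with a mean of 10% to 30% were also more frequent around both lists. They made up 4.7% and 6.01% of the distal windows within reach, against 2.1% for all genes. The higher share was therefore not confined to unmethylated windows.

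Among the transcription factors, Epas1 and Mef2c had the most windows within reach, 28 each, followed by Ets1 (20), Erg (13), Tcf4 (13), the ETS factor Elk3 (10), the Notch target Hey1 (6) and Runx1 (6). Around Mef2c the windows averaged 5.38%, 4.67% and 4.63% in mAdu and 4.79%, 4.89% and 4.72% in aged, while all distal windows in reach averaged 64.2%. Only 7 of these 28 lie inside Mef2c, and those outside include the run of 10 with the lncRNA starts and the window of Mir9-2. The 6 windows at Runx1 form a single run inside the gene, those at Hey1 lie in 5 runs, all outside it. The surface and signalling genes with the most were Adgrf5 and Calcrl, the receptor subunit for adrenomedullin, with 14 each, Smad6, an inhibitor of BMP signalling, with 13, the sphingosine 1-phosphate receptor S1pr1 and the VEGF receptor Flt1 with 9 each, and Tmem100, a lung endothelial BMP target, Notch1 and the VEGF co-receptor Nrp1 with 7 each. At Adgrf5 all 14 lie inside the gene, in 8 runs, at 4.21%, 4.11% and 3.77% in mAdu and 3.73%, 3.41% and 5.92% in aged. At S1pr1 and Tmem100, which are short genes, all lie outside.

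Developmental genes had them as well, in different numbers per list. Of 127 developmental transcription factors 76 had a window within 100 kb (59.8%, median 1), and 1.42% (1.25% to 1.6%) of distal windows in reach were unmethylated. Pax2, a factor of kidney development, had 23, the heart and limb factor Hand2 12, Zic1 and Zic4 the same 11, Pax7, a muscle stem cell factor, 10, and Pax6, Nr2e1 and Gata4 9 each. The windows around Hand2 averaged 5.98%, 5.9% and 5.08% in mAdu and 5.08%, 6.02% and 5.39% in aged. Of 39 Hox genes 29 had 1 (74.4%, median 3), but neighbours in a cluster share them: the 39 genes together reach 21 windows, 4.21% (2.77% to 6.35%) of 499. Hoxb13 and Hoxb9 share 9 at 3.49%, and Hoxc6 had 8 at 5.06%. With windows over 20 kb from edges the Hox share was 3.45 times that of all genes, down from 5.75 times. The share of the developmental factors was then 1.35 times that of all genes, down from 1.94 times. Distal windows with a mean of 10% to 30% were more frequent here as well. They made up 2.79% of the distal windows in reach of the developmental factors and 7.21% for Hox genes, against 2.1% for all genes.

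Markers of other lung cell types had shares of unmethylated distal windows near or below the 0.731% of all genes. The share of genes with a window was above the 35.7% of all genes for epithelial and mesenchymal markers and below it for haematopoietic ones. Epithelial markers had a window near 11 of 20 genes (55%, median 1), with 0.79% (0.43% to 1.45%) of distal windows, and no gene had over 2. Mesenchymal markers had them at 9 of 20 genes (45%) and 0.76% (0.445% to 1.3%) of windows, with at most 3, at Cox4i2. Haematopoietic markers had them at 3 of 22 genes (13.6%) and 0.402% (0.172% to 0.937%) of windows, namely at Marco (3), Ptprc (1) and Cd79a (1). The intervals of all 3 lists include the 0.731% of all genes. They rest on 10 epithelial, 13 mesenchymal and 5 haematopoietic windows. Like those of the other lists, they treat windows as independent, which neighbouring windows are not. The single window near Ptprc, the leukocyte surface phosphatase, had 4.32%, 0.174% and 2.68% in mAdu against 5.79%, 4.44% and 1.28% in aged, and is outside the gene.

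**Figure D4:**
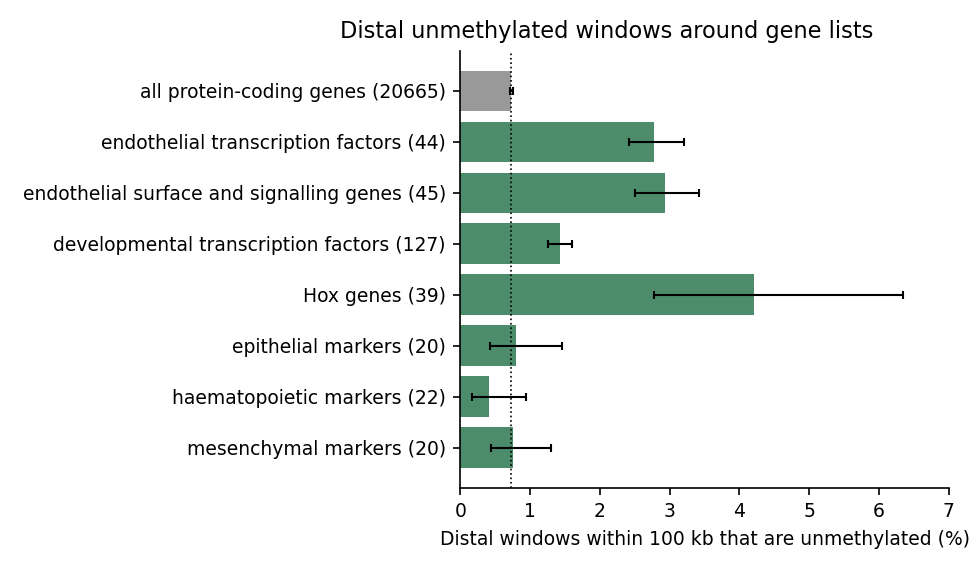
Bars give the percent of windows over 10 kb from gene edges and within 100 kb of a listed gene that are unmethylated, with 95% Wilson intervals over windows and the number of genes in brackets. The endothelial lists stand at 2.78% and 2.93% and Hox genes at 4.21%, while the dotted line marks 0.731% for all protein-coding genes.

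Single windows varied among themselves and between samples. The means of the 6871 windows had quartiles of 2.29%, 4.65% and 7.38%, and 532 lay under 1%. The windows closest to the limit from below had means of 9.9983%, 9.9971% and 9.9962%, inside Fam169a, inside Creb5 and 18767 bp from Zfp213, and those just above it 10.0004%, 10.0013% and 10.0026%, inside Slc26a5, inside Rgl1 and 10864 bp from Dpysl2. The SD over windows was 2.84 points, and the median SD within a group of samples 1.47 points. Across windows, levels in pairs of samples correlated with r between 0.56 and 0.626, a description over 6871 windows that all lie in the narrow range set by the rule. A value over 20% in at least 1 sample occurred in 58 windows, and the highest was 45.2%. By chromosome, 0.42% to 0.73% of distal windows were unmethylated, lowest on chromosome 14 and highest on chromosome 11.

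Distal unmethylated windows had the same mean level at both ages to within the spread of the samples. The mAdu samples averaged 4.96%, 4.86% and 4.75%, the aged samples 4.7%, 4.86% and 5.06%. The group means were 4.86% ± 0.105 (SD, n = 3) and 4.87% ± 0.177, a difference of 0.0145 points (two-sided exact permutation p = 1, with 0.1 the smallest that 3 against 3 can give). Aged samples spread around the mAdu ones on both sides. Windows inside coding genes were at 4.72% in both groups and those outside at 5.02% and 5.05%. Windows with a coding start averaged 2.89%, 2.94% and 2.88% in mAdu, against 2.89%, 2.94% and 2.93% in aged, those with only a lncRNA start at 4.12% ± 0.096 and 4.15% ± 0.187. The flanks, 1 to 3 windows outside the runs, were at 66.6% ± 0.244 and 66.5% ± 0.272 (-0.118 points, exact permutation p = 0.5). Exact permutation p-values of the 9 sets compared were between 0.4 and 1, and 1 after adjustment. The signs of the small differences rest on single samples: without mAdu replicate 3 that of the windows was -0.0393 points, without aged replicate 3 -0.0775, and without mAdu replicate 1 that of the flanks was 0.00503.

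**Figure D5:**
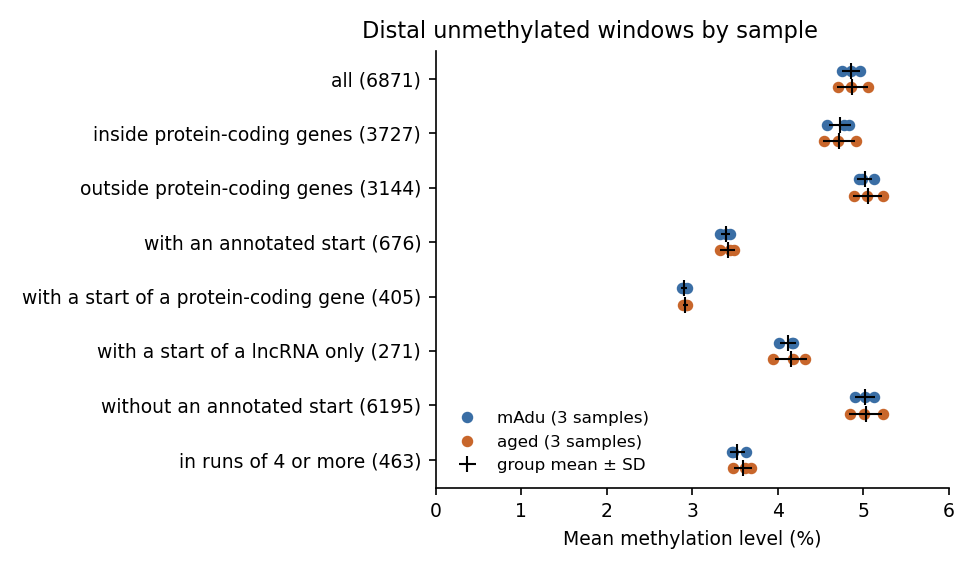
Mean methylation level in percent of distal unmethylated windows and subsets of them, with 1 point per sample and group mean ± SD (3 samples per group), the number of windows in brackets. Samples of both groups interleave in every subset, and windows with a protein-coding start lie lowest, at 2.9% and 2.92%.

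No single distal unmethylated window passed with age. limma, run over all windows, called 0.0211% of them at an adjusted p under 0.05 and 0 of the 6871. At an unadjusted p under 0.05 there were 378 (5.5%), 201 higher and 177 lower in aged, against 4.67% of all windows, and a setting on the logit scale also called 0. The groups did not overlap in 736 windows (10.7%), against 10% of all windows. Both shares are near the background. The rule used the mean over both groups and not their difference, but its limit also bounds how far a window can differ. Differences had quartiles of -0.874 and 0.907 points, 152 windows differed by over 5 points and 17 by over 10. The limma 95% interval stayed inside 5 points either way for 71.5% of the windows, against 8.57% of all windows, so a shift of that size was outside the interval for most but not all of them.

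The windows with the smallest p in each direction, none of which passed, are given as values. Higher in aged were a window inside Tcp11l2 (chr10:84597001-84598000), at 5.85%, 6.34% and 6.82% in mAdu against 12.2%, 13.1% and 13.9% in aged (limma adjusted p = 0.353), and 1 inside Sim1, a neural transcription factor (chr10:50910001-50911000), at 6.43%, 6.75% and 5.44% against 12.3%, 12.4% and 13.6% (limma adjusted p = 0.39). Windows near Cdo1 and inside Tmem135 and Phlpp1 differed by 10.7, 4.48 and 6.58 points. Lower in aged were a window 153374 bp from Phactr1, an actin and phosphatase regulator (chr13:42526001-42527000), at 9.35%, 12.4% and 9.7% against 2.39%, 2.17% and 3.03% (limma adjusted p = 0.315), and 1 inside Mertk, a receptor for engulfment of dying cells (chr2:128753001-128754000), at 4.29%, 7.05% and 6.44% against 0.158%, 0.166% and 0.205% (limma adjusted p = 0.614). Windows inside Dtna, near Sh3rf1 and inside Ctnnd1 differed by -6.64, -6.38 and -7.41 points. All 10 windows kept the groups apart, as their choice by small p makes likely.

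With all samples, no whole run passed either. limma called 0% of the 19703 runs of windows under 10% in the genome, and so 0 of the 5479 distal ones. An unadjusted p under 0.05 was found for 381 distal runs (6.95%), against 4.39% of all such runs, and what sets these shares apart was not tested. The smallest adjusted p was 0.889. A run of 4 windows 14195 bp from B020031M17Rik (chr13:119965001-119969000) had 7.53%, 7.81% and 8.17% in mAdu against 3.73%, 2.66% and 3.44% in aged (limma adjusted p = 0.889). Single-window runs inside Arhgap25 (0.319% and 4.63%) and Arhgap15 (0.774% and 4.56%) were among the lowest p of those higher in aged. Of the 10 longest runs none had a difference over 1.19 points in size, and the run at Dlc1 had a limma interval of -1.55 to 0.965 points. Without aged replicate 2, 1 window and the run it forms passed, 64408 bp from Speer1 (chr5:11275001-11276000), at 15.5% and 16.1% in the other aged samples, 0.00438% in the one left out and at most 0.102% in mAdu. With all samples its limma adjusted p was 0.978.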

How the data were processed

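Bisulfite sequencing of the whole genome after tagmentation gave the methylation of 6 samples. BWA 0.7.8 and mm10 are named per the submitters' processing notes. For the CpG caller, coverage filters and averaging, the tool is not given in the sources used here. Values as deposited are the authors' mean methylation per window of 1000 bp as a fraction, with no coverage, so the depth and counting error of a value are unknown. The table held 1684140 windows. Fractions were multiplied by 100, and windows lacking any of the 6 values were dropped, the others weighted equally.

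Gene spans, biotypes, promoters and miRNAs came from RefSeq tables of GRCm38.p6. Of 320 listed genes, 3 had no match on the autosomes. Runs join adjacent windows with a mean under 10%, and a run is distal where every window of it meets the rule. Windows and runs were tested in R 4.3.3 with limma 3.58.1, using percent values, a model of group alone and a trend in the variance, and p-values were adjusted by Benjamini and Hochberg over all windows or runs (threshold 0.05). Means per sample were compared by exact permutation. Shares carry Wilson intervals from scipy 1.17.1. The fits were tested on simulated data. Alternatives were limits of 5% and 15%, distances of 5, 20 and 50 kb, no values under 0.01%, the replicate block, each replicate left out, a logit scale, no variance trend and no extreme values.

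Named are the 10 longest runs, the 5 farthest windows, the 3 on either side of the limit, the 8 genes with most windows, up to 8 genes per list, 8 windows at named non-coding genes, and the 5 smallest p in each direction with age. The promoters and miRNAs were chosen after their values were seen. Windows and lists were chosen with earlier results of these data known.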

Additional observations from a re-analysis of the deposited data

How the results depend on the processing

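With a limit of 5% or 15% on the mean there were 3639 and 10650 distal unmethylated windows, of which 56.4% and 52.2% lay inside protein-coding genes and 19.3% and 14.2% within 1000 bp of another gene. Over 5, 20 and 50 kb from gene edges the share inside genes was 55.6%, 53.1% and 49.2%, and over 50 kb 2716 windows were left, 13.9% of them near another gene. At 500 and 2000 bp in place of 1000 bp, 13% and 20.2% were near another gene. The difference in mean level was -0.00792 points over 20 kb, -0.0069 over 50 kb and -0.00701 with no value under 0.01%. Leaving out single samples gave -0.0775 to 0.0995 points for the windows and -0.274 to 0.00503 for the flanks, and 0 to 1 windows and 0 to 1 runs called, with the call without aged replicate 2 only. Same-numbered samples did not deviate together (r of -0.0274, -0.0201 and -0.00436 over the windows), which cannot tell if they were paired or processed together. With the replicate block the differences were 0.0145 and -0.118 points (exact sign-flip p = 1 and 0.75, smallest possible 0.25), and 0 windows and 0 runs were called. Of 77 alternatives to these results 56 left them the same, 15 moved a count or share and 6 reversed a difference. The same means a count close to the main one, a share inside its Wilson interval, or a difference of equal sign and side of the threshold. Exact permutation p-values cannot fall under 0.1 here, so their side could not change. Some other alternatives could not change the result either. The replicate block keeps the difference by design. Windows under 5%, over 20 or 50 kb from edges, or with no value under 0.01% are part of the main ones. Their calls came from the same fit, so 0 calls were fixed there. The 10 windows named with age kept sign and side in 100 of 100 settings (limma adjusted p from 0.164 to 0.984). Their groups do not overlap, so no setting could change the sign, and only the side of the threshold could move. The ratios to all genes for endothelial transcription factors, developmental factors and Hox genes moved in 1 alternative each. That for endothelial transcription factors rose from 3.8 to 4.41 with a limit of 5%. Over 20 kb from edges that for developmental factors fell from 1.94 to 1.35 and that for Hox genes from 5.75 to 3.45. The unknown depth limits every single value.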
